A study of Populus trichocarpa with 28 samples.

Results

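In the shoot apex of Populus trichocarpa (black cottonwood), 134 of 41335 genes carried fewer reads on their own strand and more reads on the opposite strand after 24 hours of drought. They were selected on measured values. Sense and antisense counts of each gene were divided by the library's sense total and scaled to 1000000 reads, written here as CPM. A gene was taken when its mean sense level under drought was at most 0.5 times the control mean, its mean antisense level was at least 2 times the control mean and at least 0.5 CPM, and both drought libraries lay beyond both control libraries on each strand. For the short-term apex, "fell" and "rose" stand for meeting these conditions and carry no test, because the same values chose the genes. All tests below come from libraries that the choice did not use.

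Antisense RNA is made from the strand opposite to a gene. It can come from a neighbouring gene whose transcription runs past its end, from a neighbour that overlaps the gene on the other strand, or from a start site within or behind the gene itself. In Arabidopsis, antisense RNA of the floral repressor gene FLC, called COOLAIR, accumulates in the cold while FLC falls, and the overlapping genes P5CDH and SRO5 form small RNAs under salt stress. Antisense transcription can act on the sense gene through chromatin, through polymerases that meet head on or through double-stranded RNA, or have no effect on it.

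The plants were rooted stem cuttings grown in a greenhouse and watered to field capacity before treatment, with no mutant or transgene named. Controls stayed well watered, and drought plants were kept at 40% of field capacity for 24 hours (short-term) or 25 days (long-term). The short-term experiment covered apex and mature leaves as total RNA. In the long-term experiment, mRNA was sequenced from apex, from young and mature leaves and from root, and total RNA from root only. Each of these 7 settings had 2 control and 2 drought libraries, 28 in all, which are called by the numbers in their titles. Short-term control libraries were 19 and 49 and drought libraries 35 and 69, and long-term control libraries were 63 and 70 and drought libraries 64 and 68. The labels name no clone or age and leave unsaid whether the pair of libraries in a group represents different plants, so p-values measure the spread between libraries, which may be technical.

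Sense totals ran from 20249489 to 67062224 reads and antisense totals from 382726 to 2686433, or 1.38 to 8.27 antisense reads per 100 sense reads. In the 12 long-term shoot mRNA libraries, 10.4% to 12.7% of genes with at least 20 antisense reads had exactly as many sense as antisense reads, against 0% to 0.192% in the other 16 libraries. Antisense exceeded sense in 24.5% to 29.4% of these genes in the shoot libraries, against 37.6% to 49.7% in the other 16. Sense counts of those shoot libraries may therefore hold antisense reads in some genes, but not all antisense reads of every gene. How the authors counted each strand is not stated in the labels. In these groups up to 6 of the 134 genes had strands within 5% of each other in both libraries of the group, and in all other groups 0 had. Sense results there are given also with the antisense counts subtracted, which is no correction for genes with more antisense than sense reads. The files pair no gene with a name or product, so the genes appear by identifier, whose digits before the G give the chromosome, and nothing is said of their function. Gene lengths were not given, so levels are compared within a gene and not between genes.

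The 134 genes made up 12.2% of the 1094 genes whose antisense rose and 1.75% of the 7670 genes whose sense fell. Antisense rose in 2.65% of all genes and sense fell in 18.6%, and since the rule used both, nothing is read from these shares. The opposite combination, sense up and antisense down, met the same conditions in 32 genes. Sense and antisense rose together in 285 genes and fell together in 124. Of the 436 genes whose sense fell and whose antisense reached 0.5 CPM in either arm, 30.7% were among the 134. Of the 490 such genes whose sense rose, 58.2% had risen on the antisense strand too. Over all 2631 genes whose antisense reached that level, antisense rose in 41.6%, above the 30.7% and below the 58.2%. Among the genes with antisense reads, rising together was the more frequent combination in these libraries. These shares rest on the values that the rule used, so they are a description and nothing further is read from them.

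The median sense level of the 134 genes was 8.82 CPM in control (quartiles 1.03 and 38.8) and 2.06 CPM in drought (quartiles 0.256 and 10.9). Their median antisense level was 0.328 CPM in control (quartiles 0.186 and 0.777) and 1.19 CPM in drought (quartiles 0.760 and 2.96). The median of the ratio of drought to control was 0.291 for sense and 3.29 for antisense. The antisense mean exceeded the sense mean in 65 genes under drought, against 24 in control. In 91 genes the sense strand lost more CPM than the antisense strand gained, and in 43 it was the reverse. Antisense levels were low: 76 genes reached 1 CPM in drought, 22 reached 5 CPM and 10 reached 10 CPM. In 91 genes both drought libraries held at least 2 times the antisense level of both controls, and library 35 was above library 69 in 64 genes.

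Summed over the 134 genes, sense reads made up 41028.5 and 39984 CPM in the control libraries and 6851 and 5787 CPM in the drought libraries. Without Potri.011G074200 and Potri.011G075000, the 2 genes with most sense reads, control libraries summed to 7543 and 7583 CPM and drought libraries to 2499 and 2142 CPM. Summed antisense was 147 and 141 CPM in control, against 1274 and 603 CPM under drought. The gap between the drought libraries came mostly from Potri.011G075000, described below, and without it and Potri.002G010200 the control libraries summed to 116 and 104 CPM and the drought libraries to 399 and 406 CPM. In bulk tissue, fewer cells of a type and less RNA per cell cannot be told apart.

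**Figure D1:**
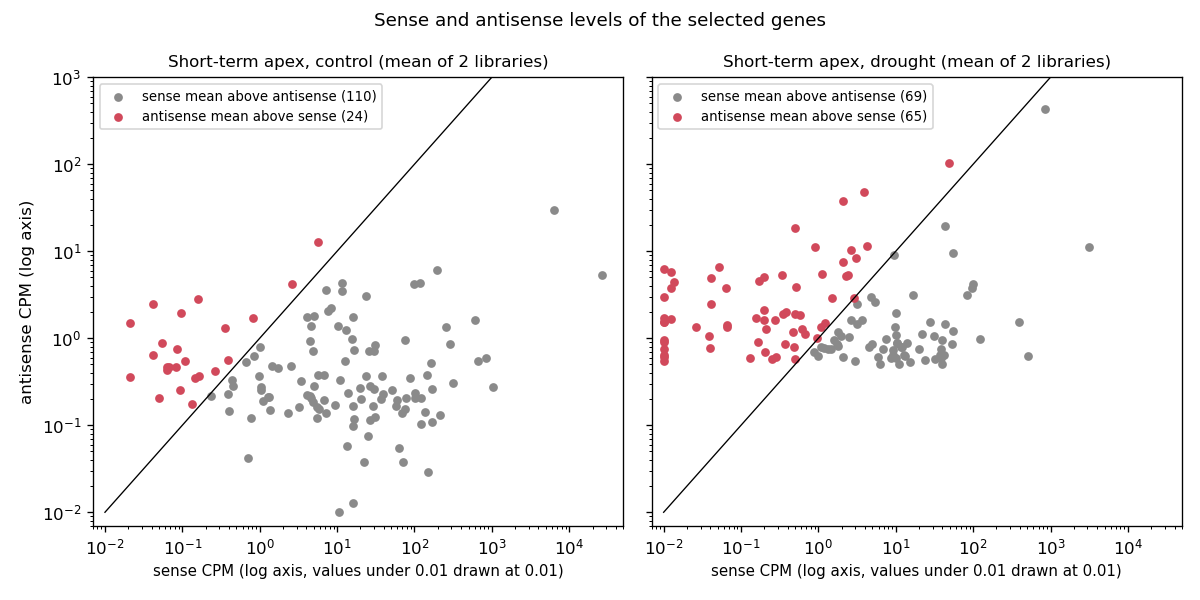
Sense and antisense levels of the 134 genes in the short-term apex, as means of 2 libraries in CPM on log axes, in control (left panel) and drought (right panel), with values under 0.01 drawn at 0.01. The line marks equal strands, and red points have more antisense than sense, 24 in control and 65 in drought. The medians moved from 8.82 to 2.06 CPM on the sense strand and from 0.328 to 1.19 CPM on the antisense strand.

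Sums over tissue-associated genes also differed between the arms of the short-term apex. Genes with at least 4-fold higher sense levels in well-watered long-term apex than in mature leaves, 3035 in all, summed to 104492 and 114845 CPM in the short-term apex controls and to 38905 and 32289 CPM in drought. The 2462 genes with at least 4-fold higher levels in leaves summed to 163693 and 148332 CPM in control and to 189374 and 170531 CPM in drought. The median apex gene was at 6.03 and 6.93 CPM in control, and 1.48 and 1.36 CPM under drought, and the median leaf gene at 1.52 and 1.22 CPM, and then 3.36 and 2.83 CPM. Of the 134 genes, 33 were among the apex genes, beside 3035 of all 41335 genes. Among the leaf genes were 8 of the 134, beside 2462 of all 41335. The part of this shift in the sense falls was not tested.

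At the edges of the rule, Potri.012G140400 (sense ratio 0.499) and Potri.005G218800 (0.494) were just inside, and Potri.018G065200 (0.517) and Potri.006G137900 (0.518) just outside. For the antisense ratio, Potri.019G080000 (2.05) and Potri.005G106300 (2.08) were inside and Potri.001G376500 (1.99) and Potri.017G122300 (1.90) outside. For the antisense level, Potri.008G054000 (0.505 CPM) and Potri.014G042300 (0.511 CPM) were inside and Potri.001G307700 (0.4997 CPM) and Potri.013G115600 (0.498 CPM) outside. The genes lay on all 19 chromosomes, with 1 on an unplaced scaffold, and their share ran from 0.0355% of the genes of chromosome 6 (1 gene) to 0.673% of those of chromosome 15 (10 genes).

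Among the 8 genes with most antisense reads under drought, the major strand changed in 4. Potri.011G122200 had 15.6 and 16.6 CPM of sense in control and 3.52 and 4.17 CPM in drought, while its antisense went from 1.43 and 2.09 to 54.6 and 41.6 CPM. The minor strand in control thus became the major strand, in both drought libraries. Potri.002G010200 went from 94.0 and 104 CPM of sense to 46.5 and 50.7 CPM, and from 5.15 and 3.23 to 91.6 and 113 CPM of antisense. Potri.014G007100 had 3.91 and 4.15 CPM of sense in control and 0.834 and 0.985 CPM in drought, against antisense levels of 1.67 and 1.81 and then 11.6 and 11.1 CPM. In these 3 genes the arms did not overlap on either strand, and the strands exchanged order in each.

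In Potri.002G195800, sense went from 11.5 CPM in both controls to 3.47 and 4.93 CPM, and antisense from 3.95 and 2.95 to 15.4 and 7.5 CPM. Library 69 lay nearer to the controls than library 35. Potri.014G157400 was antisense-dominated in both arms, with 12.9 and 12.6 CPM of antisense in control and 27.1 and 47.7 CPM in drought beside sense levels of 5.23 and 6.09 and then 1.61 and 2.50 CPM. Potri.008G151500 was also antisense-dominated, from 5.23 and 3.13 to 17.0 and 20.0 CPM of antisense, with sense going from 2.60 and 2.57 to 0.538 and 0.455 CPM. In Potri.016G031100 sense remained the major strand, at 198 and 197 CPM in control, and 44.6 and 43.1 CPM under drought, with antisense at 7.11 and 4.94 and then 13.6 and 25.2 CPM.

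Potri.011G075000 had the highest antisense mean, and it rested on 1 library. Its antisense level was 26.0 and 34.3 CPM in control, 783 CPM in drought library 35 and 83.6 CPM in drought library 69. Its sense level went from 6028 and 6582 CPM to 865 and 810 CPM, with no such gap. Its intron entry held sense levels close to these in control, at 6107 and 6609 CPM, and 555 and 650 CPM under drought. Which RNA these reads came from was not tested. In short-term mature leaves its antisense level also varied within an arm, at 226 and 53.3 CPM in control, and 121 and 69 CPM under drought.

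Among the 8 genes with most sense reads in control, antisense stayed far below sense in 7, all but Potri.011G075000 described above. Potri.011G074200 had 27457 and 25818 CPM of sense in control and 3486 and 2835 CPM in drought, against antisense levels of 5.20 and 5.58 and then 16.6 and 5.91 CPM. Only library 35 stood well above the controls on the antisense strand. The intron entry of Potri.011G074200 held 26680.5 and 24777 CPM of sense in control, and 2851 and 2680 CPM under drought. These levels were close to those of the gene, and which RNA the reads came from was not tested. Potri.003G195500 had the steeper sense change of the rest, from 669 and 653 to 52.6 and 34.2 CPM, and its antisense went from 0.616 and 0.484 to 1.24 and 1.69 CPM. Potri.001G407100 went from 614 and 593 to 109 and 82.4 CPM of sense, and from 1.40 and 1.81 to 3.96 and 3.56 CPM of antisense. In both, antisense stayed far below sense in every library. Potri.013G073300, Potri.015G101100, Potri.008G132400 and Potri.005G218800 had control sense levels between 244 and 1069 CPM, and none of their antisense levels exceeded 3.41 CPM in drought.

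At the other end stood genes with almost no sense reads. Potri.009G079300 had 2.41 and 2.50 CPM of antisense in control and 4.84 and 6.67 CPM in drought, with sense at 0.0333 and 0.0509 and then 0 and 0.0253 CPM. Potri.009G144200 had 2.98 and 2.70 CPM of antisense in control and 5.65 and 7.43 CPM in drought. Potri.012G103000, Potri.016G052000, Potri.013G129300 and Potri.T061900 were of the same kind, with drought antisense levels between 1.48 and 6.24 CPM and sense levels of at most 0.408 CPM in any of these libraries. Antisense reads outnumbered sense reads in these 6 genes in every short-term apex library, and the fall of their sense strand rested on few reads. Control sense means were under 1 CPM in 33 of the 134 genes, and drought sense counts were 0 in both libraries in 11.

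A gene beside 8 of the 134 showed the mirror image, with sense up and antisense down. These 8 neighbours were 25.0% of the 32 genes of that kind, and the 134 genes were next to such a gene in 5.97% of cases. The share was 0.155% over all genes, 0.418% over the 2631 genes with antisense at 0.5 CPM in either arm, 0.351% over the 285 genes that rose on both strands and 0% over the 124 that fell on both. Neighbours are the adjacent identifiers, which run along each chromosome. Their orientation and overlap were not used here. Where neighbours overlap on opposite strands, sense reads of the first and antisense reads of the second can be the same reads, and the data do not tell these apart. The same libraries chose the genes and their mirror images, and shared reads would fix the opposite directions. Nothing is therefore read from these shares.

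In the pair Potri.011G122200 and Potri.011G122100, the neighbour's sense went from 2.03 and 2.98 to 79.9 and 63.9 CPM and its antisense from 5.94 and 6.52 to 1.56 and 1.26 CPM. The antisense of Potri.011G122200, at 54.6 and 41.6 CPM in drought, ran parallel to the neighbour's sense. In the pair Potri.014G157400 and Potri.014G157500, the neighbour's antisense was 5.10 and 6.06 CPM in control, and 1.59 and 2.50 CPM under drought, almost the sense levels of Potri.014G157400 in each library. Its sense went from 20.5 and 21.4 to 48.9 and 77.6 CPM. In the pair Potri.002G225600 and Potri.002G225500, sense of the first went from 23.6 and 24.2 to 9.79 and 9.32 CPM and antisense of the second from 19.8 and 20.5 to 7.51 and 7.93 CPM. Antisense of the first went from 3.15 and 2.98 to 8.56 and 9.50 CPM, and sense of the second from 8.19 and 7.08 to 30 and 21.8 CPM. In each pair, sense of the first gene moved with antisense of the second, and the reverse, as their selection requires. The others were Potri.001G305900 with Potri.001G305800, Potri.002G195800 with Potri.002G195700, Potri.005G106300 with Potri.005G106200, Potri.012G082700 with Potri.012G082800 and Potri.015G069800 with Potri.015G069900.

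**Figure D2:**
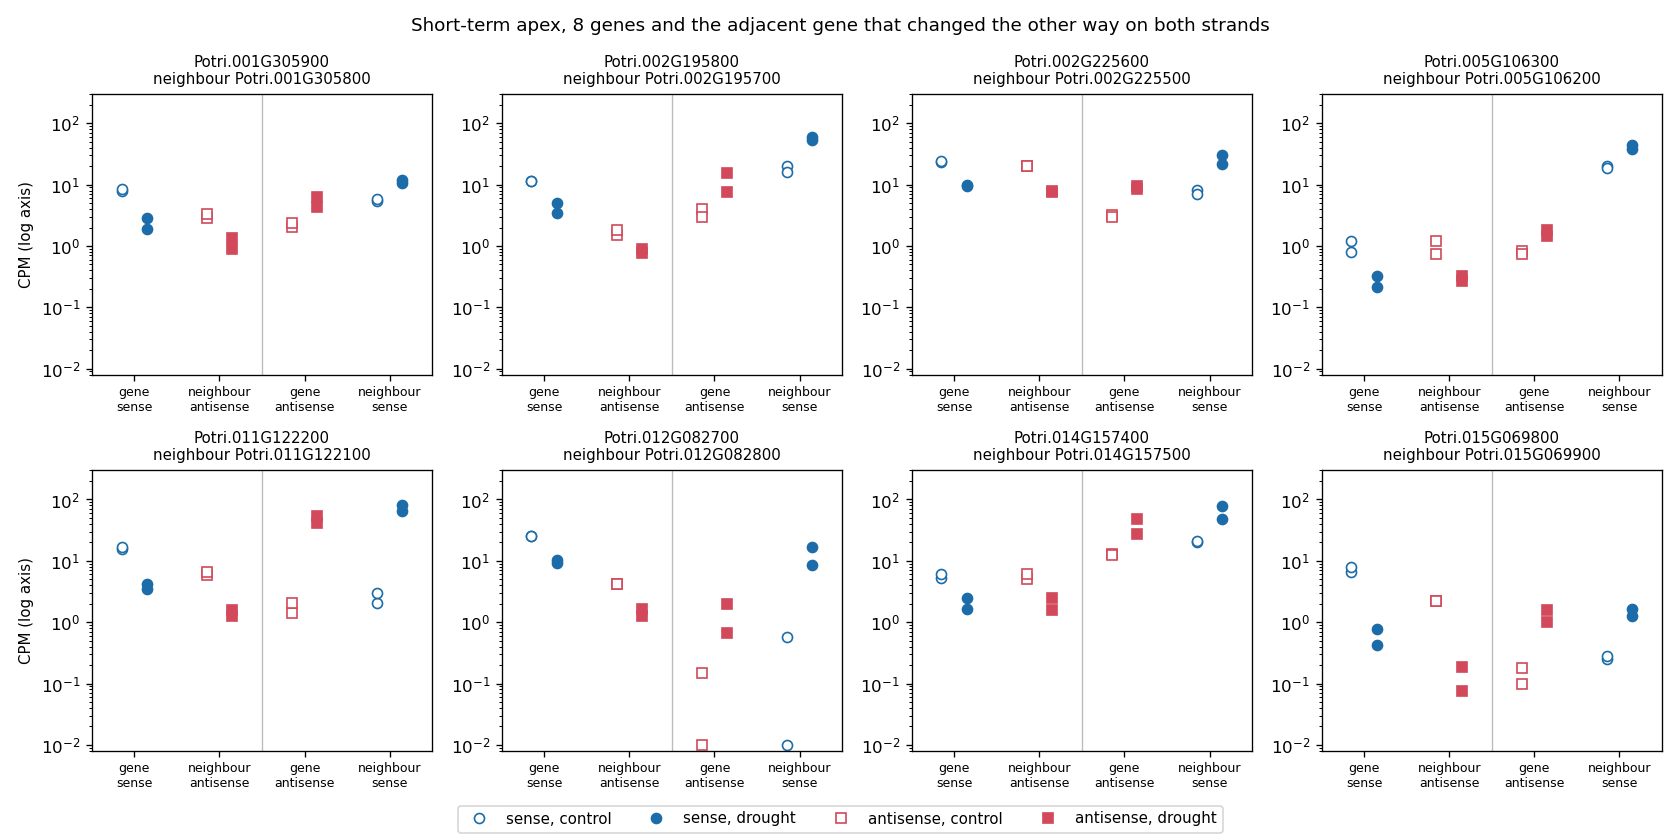
Levels in CPM on log axes for the 8 genes and their mirror-image neighbours in the 4 short-term apex libraries, open symbols for control and filled for drought and 0 drawn at 0.01, with the sense of each gene beside the antisense of its partner. In the pair on chromosome 14 the sense of Potri.014G157400 and the antisense of Potri.014G157500 nearly coincide in all 4 libraries.

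More broadly, 51 of the 134 genes (38.1%) had an adjacent gene whose sense rose and 22 (16.4%) one whose sense fell, and in 67 no adjacent gene did either. The shares were 29.3% and 27.8% over the 2631 genes with antisense reads and 22.9% and 26.4% over all genes. Genes that rose on both strands had a rising neighbour about as often, in 39.3%, so this share is not particular to the 134. Beside Potri.002G010200, the sense of Potri.002G010100 went from 21.3 and 15.2 to 408 and 572 CPM.

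Reads over introns come from unspliced or overlapping RNA. Of the 134 genes, 109 had an intron entry of their own. Intron antisense reached 0.5 CPM in 31 of them, and by the same 2-fold rule it rose in 28 (90.3%) and fell in 2 (6.45%), which the choice on gene antisense reads partly fixes. Over the 560 intron entries at that level, 40.2% rose and 15.9% fell. Intron sense counts of these libraries may hold antisense reads: of the entries with at least 20 antisense reads, 19.6% to 25.2% had exactly as many sense as antisense reads in the 4 short-term apex libraries, against 0% to 1.20% in the other 24. Intron sense reached 0.5 CPM in 71, where it rose in 13 (18.3%) and fell in 20 (28.2%), beside 48.0% and 8.0% over 16426 entries. In 11 of those 13 the mean intron antisense level under drought was within 5% of the intron sense level, and in 8 both drought libraries had equal counts on the strands. The intron sense rises can therefore be the antisense reads that chose the genes, and nothing is read from these shares.

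The question for the remaining libraries was whether the same genes changed on both strands elsewhere. Tests are edgeR's quasi-likelihood test on all genes passing its expression filter, with a Benjamini-Hochberg adjusted p under 0.05 as the threshold for a call. Log2 changes are drought over control, with SE. The background is the share called among all genes tested. Comparisons of the same libraries on both strands share their samples, and root mRNA and root total RNA carry the same title numbers and deviated together, so they are not independent.

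In mature leaves after 24 hours, sense was lower in 19 of 94 genes tested (20.2%, background 9.20%) and higher in 1 (background 8.73%). Antisense was higher in 19 of 96 (19.8%, background 9.58%) and lower in 0 (background 4.35%). At an unadjusted p under 0.05, antisense was lower in 3, beside 11.6% over all genes, and by DESeq2 in 1. The median log2 change was -0.83 for sense and 0.72 for antisense, against 0.00 and 0.12 over all genes. Apex genes were scarce in these libraries, at 14687 and 14730 CPM in control, and 26087 and 22334 CPM under drought. Most of the sense calls needed both control libraries, and most of the antisense calls needed both drought libraries. There was 1 sense call without control library 19 or 49, and there were 46 without drought library 35, 19 of them among the 20. There were 3 antisense calls without drought library 35, 2 of them among the 19, and 3 without drought library 69, all among the 19. These libraries carry the same title numbers as the apex libraries that chose the genes, and deviations of same-numbered libraries from their group means correlated at 0.0363 in control and 0.289 in drought, so that if a number marks a plant the leaf results are not independent of the choice.

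Both strands were called, sense lower and antisense higher, in 5 of 64 genes tested on both in short-term mature leaves, where the background was 0.898%. These were Potri.001G068400, Potri.001G407100, Potri.002G256500, Potri.009G169500 and Potri.012G072300. The background includes them, and each strand alone was also called above its background. Whether both strands were called together more often than that alone gives was not tested. Potri.001G407100 went from 1525 and 1869 to 607 and 307 CPM of sense (log2 change -1.95 ± 0.34, edgeR adjusted p = 0.0166) and from 1.39 and 0.674 to 4.26 and 2.39 CPM of antisense (1.66 ± 0.43, adjusted p = 0.0401). Potri.002G256500 went from 0.402 and 0.698 to 0.0916 and 0.0754 CPM of sense (-2.74 ± 0.63, adjusted p = 0.03) and from 0.124 and 0.145 to 0.916 and 0.578 CPM of antisense (2.39 ± 0.52, adjusted p = 0.0257). The arms did not overlap on either strand in these 2 genes, at very different levels. Their sense calls were lost without control library 19 or 49 and their antisense calls without drought library 35 or 69 (adjusted p from 0.111 to 0.263). DESeq2 gave 3 genes called on both strands. Without control library 19, control library 49 or drought library 69 there were 0, and without drought library 35 there was 1.

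Single antisense changes in mature leaves were larger. Potri.003G131500 went from 0.0310 and 0.0723 to 1.47 and 1.68 CPM (4.74 ± 0.56, edgeR adjusted p = 0.0104), and in the apex from 0.300 and 0.357 to 5.33 and 4.8 CPM. Potri.012G103000 went from 0.402 and 0.578 to 3.87 and 2.94 CPM (2.72 ± 0.37, adjusted p = 0.0106). Both were called whichever library was left out. Potri.008G054000 went the other way on its sense strand, from 5.42 and 5.49 CPM to 555 and 354 CPM (6.33 ± 0.29, adjusted p = 0.000157), while it had gone from 92.2 and 113 to 51.3 and 28.4 CPM in the apex.

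After 25 days the apex showed no such pattern at these thresholds. Sense was lower in 0 of 119 genes tested (background 0.136%) and higher in 0 (background 0.0279%) by edgeR, with 11 and 16 at an unadjusted p under 0.05 and 4 and 0 by DESeq2. Over all genes tested, 7.14% were lower and 4.21% higher at an unadjusted p under 0.05. Log2 changes of sense were negative in 44 of the 119, against 48.8% over all genes. Sense thus leaned upward, opposite to its fall after 24 hours, and this lean was not tested. Antisense was higher in 0 of 44 (background 0.0631%) and lower in 0 (background 0.757%), with 2 and 2 at an unadjusted p under 0.05 and 0 and 0 by DESeq2. Over all genes tested on that strand, 5.67% were higher and 5.86% lower at an unadjusted p under 0.05. Both strands were called in 0 of 42 (background 0%), with 0 at an unadjusted p under 0.05 on both and 0 by DESeq2. Few genes of any kind were called there. The median log2 change of the genes tested was 0.10 for sense and -0.06 for antisense, and their median control levels were 8.41 CPM of sense and 0.118 CPM of antisense. Leaving out 1 library gave at most 2 sense calls (without control library 70) and 1 antisense call (without control library 70), and 1 sense call without drought library 64 or 68. The difference between 24 hours and 25 days was not tested, and library types differed.

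In young leaves after 25 days, sense was lower in 29 of 114 genes (25.4%, background 6.83%) and higher in 1 (background 4.62%). With antisense counts subtracted from sense counts, the split was 29 and 1 as well. The gene called higher was then a different 1, because Potri.003G020100, called higher before, reversed after subtraction. On the antisense strand 4 of 46 were higher (8.70%, background 5.54%) and 0 lower (background 2.28%). At an unadjusted p under 0.05, antisense was lower in 3, beside 7.37% over all genes, and by DESeq2 in 0. Without drought library 64 there were 17 sense calls, and antisense calls were 8 without control library 63, 11 without control library 70 and 1 without drought library 68. The summed level of the apex genes was also lower there, at 62625 and 53519 CPM in control, and 25987 and 30310 CPM under drought, and its part in the sense result was not tested.

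In mature leaves after 25 days, sense was lower in 9 of 106 (8.49%, background 4.07%) and higher in 2 (background 1.29%). With antisense counts subtracted, 14 were lower and 2 higher. On the antisense strand 1 of 44 was higher (2.27%, background 0.785%) and 0 lower (background 0.999%). At an unadjusted p under 0.05, antisense was lower in 7, beside 8.84% over all genes, and by DESeq2 in 0. Sense calls were 19 without control library 70 and 7 without drought library 64 or 68, and antisense calls were 2 without control library 63, 11 without control library 70 and 3 without drought library 68. Both strands were called in 0 of 43 genes in young leaves (background 0.0725%) and 0 of 40 in mature leaves (background 0%) by edgeR and by DESeq2, with 2 and 0 at an unadjusted p under 0.05 on both.

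In root mRNA after 25 days, sense was lower in 35 of 108 genes (32.4%, background 14.7%) and higher in 3 (background 12.7%). Antisense was higher in 16 of 76 (21.1%, background 13.9%) and lower in 5 (background 7.15%). In root total RNA, sense was lower in 39 of 109 (35.8%, background 14.3%) and higher in 3 (background 12.1%), and antisense was higher in 20 of 117 (17.1%, background 9.97%) and lower in 4 (background 6.60%). The sense shares lay further above their backgrounds than the antisense shares did. The strands differed in the genes tested and in level, and the difference between them was not tested. The apex genes summed to 91583 and 91641 CPM in the root mRNA controls and to 60054 and 48656 CPM in drought, and their part in the sense result was not tested. Controls decided many calls: without control libraries 63 and 70 there were 13 and 9 sense calls and 9 and 12 antisense calls in mRNA, and 20 and 12 sense calls in total RNA. There were 23 sense calls in total RNA without drought library 68.

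Both strands were called, sense lower and antisense higher, in 4 of 62 genes in root mRNA (background 0.644%) and 6 of 95 in root total RNA (background 0.777%). Potri.001G305900 and Potri.T061900 were in both sets. Potri.001G305900 went from 22.9 and 21.0 to 8.26 and 6.16 CPM of sense in mRNA (-1.44 ± 0.18, edgeR adjusted p = 0.0109) and from 8.96 and 8.70 to 35.5 and 30.3 CPM of antisense (2.07 ± 0.16, adjusted p = 0.00294). In total RNA it went from 16.7 and 15.1 to 6.38 and 5.31 CPM of sense (-1.30 ± 0.15, adjusted p = 0.00971) and from 6.65 and 5.15 to 23.5 and 18.5 CPM of antisense (1.97 ± 0.21, adjusted p = 0.00054). The arms did not overlap, and the strands exchanged order as in the apex. The sense call in mRNA was lost without control library 63 (adjusted p = 0.0563) or 70 (adjusted p = 0.0575), and the other 3 calls held whichever library was left out.

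Its neighbour Potri.001G305800 mirrored it in root as well. The neighbour's sense went from 12.4 and 12.2 to 48.7 and 45 CPM in mRNA (2.1 ± 0.12, edgeR adjusted p = 0.00628) and its antisense from 15.1 and 12.4 to 5.47 and 4.21 CPM (-1.34 ± 0.21, adjusted p = 0.00833). Potri.011G122200 had antisense of 28.7 and 55.4 CPM in control, and 275 and 256 CPM under drought (2.83 ± 0.31, adjusted p = 0.0036), and its neighbour Potri.011G122100 had sense of 30.6 and 60.8 and then 304 and 286 CPM (2.86 ± 0.36, adjusted p = 0.0107). The 2 series followed each other library by library, including the gap between the controls. In total RNA the sense of Potri.011G122200 was 10.1 and 9.12 CPM in control, and 5.29 and 5.38 CPM under drought (-0.70 ± 0.14, adjusted p = 0.0269), a call lost when any of the 4 libraries was left out (adjusted p from 0.0684 to 0.145).

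The direction of such pairs was not fixed. In root mRNA the antisense of Potri.002G225600 went down, from 30.6 and 73.8 to 8.26 and 9.79 CPM (-2.36 ± 0.40, edgeR adjusted p = 0.0107), with the sense of Potri.002G225500 going from 58.6 and 139.9 to 13.5 and 19.2 CPM (-2.43 ± 0.47, adjusted p = 0.0235). The antisense call was lost without drought library 64 (adjusted p = 0.424) or 68 (adjusted p = 0.44). Antisense of Potri.014G157400 also went down, from 3.59 and 1.98 to 0.537 and 0.503 CPM in root total RNA (-2.27 ± 0.34, adjusted p = 0.00208), with the sense of Potri.014G157500 lower (-2.01, adjusted p = 0.0219). In both pairs antisense of the first gene and sense of its neighbour moved the same way in apex and in root, up in apex and down in root, and the difference between the tissues was not tested.

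Potri.T061900, on an unplaced scaffold, had sense of 0.359 and 0.374 CPM in root total RNA controls and 0.0746 and 0.0538 CPM in drought (-2.32 ± 0.49, edgeR adjusted p = 0.0297), and antisense of 0.222 and 0.374 and then 2.55 and 2.67 CPM (3.27 ± 0.33, adjusted p = 0.00054). Its sense call was lost by DESeq2 (adjusted p = 0.0771) and when any of the 4 libraries was left out (adjusted p from 0.0795 to 0.165), and its antisense call held. The other genes of the root total RNA set were Potri.002G023900, Potri.011G052800, Potri.011G122200 and Potri.015G099100, with antisense at most 0.969 CPM in drought except in Potri.011G122200. The other genes of the root mRNA set were Potri.008G074800 and Potri.014G128500. Without control library 63 or 70 the sets held 0 genes in mRNA and 1 in total RNA. Without drought library 68 they held 1 and 2, and without drought library 64 they held 8 in mRNA and 7 in total RNA.

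Some of the 134 fell on both strands in root. Potri.007G036400 went from 71.7 and 103 to 7.79 and 5.59 CPM of sense in mRNA (-3.54 ± 0.27, edgeR adjusted p = 0.0065) and from 2.14 and 2.61 to 0.557 and 0.466 CPM of antisense (-2.04 ± 0.28, adjusted p = 0.00654), and all 4 of its root calls held whichever library was left out. In the apex its sense had gone from 143 and 151 to 17.4 and 10.4 CPM and its antisense from 0.300 and 0.458 to 0.780 and 0.960 CPM. Potri.019G080000 was called lower on both strands in both root library types, and Potri.001G407100 in root mRNA. Their antisense calls in mRNA were lost without control library 63 or 70 (adjusted p from 0.0706 to 0.177), and the sense call of Potri.001G407100 without control library 70 or drought library 64 or 68 (adjusted p from 0.0934 to 0.125). Antisense of Potri.009G065100 was higher in root mRNA, from 1.54 and 1.25 to 9.79 and 15.5 CPM (3.35 ± 0.29, adjusted p = 0.00294), with no sense call.

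Potri.002G010200 was the gene whose antisense was called most widely, in 5 of the 6 other drought comparisons. Its antisense was 26.0 and 32.4 CPM in control, and 85.8 and 84.1 CPM under drought in short-term mature leaves (1.49 ± 0.28, edgeR adjusted p = 0.0197). It was 10.7 and 5.51 and then 35.2 and 48.5 CPM in young leaves (2.43 ± 0.28, adjusted p = 0.00608). It was 21.0 and 24.5 and then 72.6 and 90.5 CPM in long-term mature leaves (1.84 ± 0.29, adjusted p = 0.0276). Both long-term leaf calls held whichever library was left out, and the short-term leaf call was lost without drought library 35 (adjusted p = 0.093) or 69 (adjusted p = 0.124). In root mRNA it was 45 and 52.1 and then 143 and 421 CPM (2.71 ± 0.47, adjusted p = 0.0111), lost without control library 63 (adjusted p = 0.0829) or 70 (adjusted p = 0.163) and with no filter on low counts (adjusted p = 0.608). In root total RNA it was 33.3 and 34.2 and then 103 and 261 CPM (2.58 ± 0.47, adjusted p = 0.0218), lost with no filter on low counts (adjusted p = 0.485). In long-term apex, at 13.4 and 8.45 and then 9.38 and 10.7 CPM, the arms overlapped. Its sense was called in none of these 6 comparisons, and in short-term mature leaves it was 31.3 and 29.6 CPM in control and 34.3 CPM in both drought libraries.

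**Figure D3:**
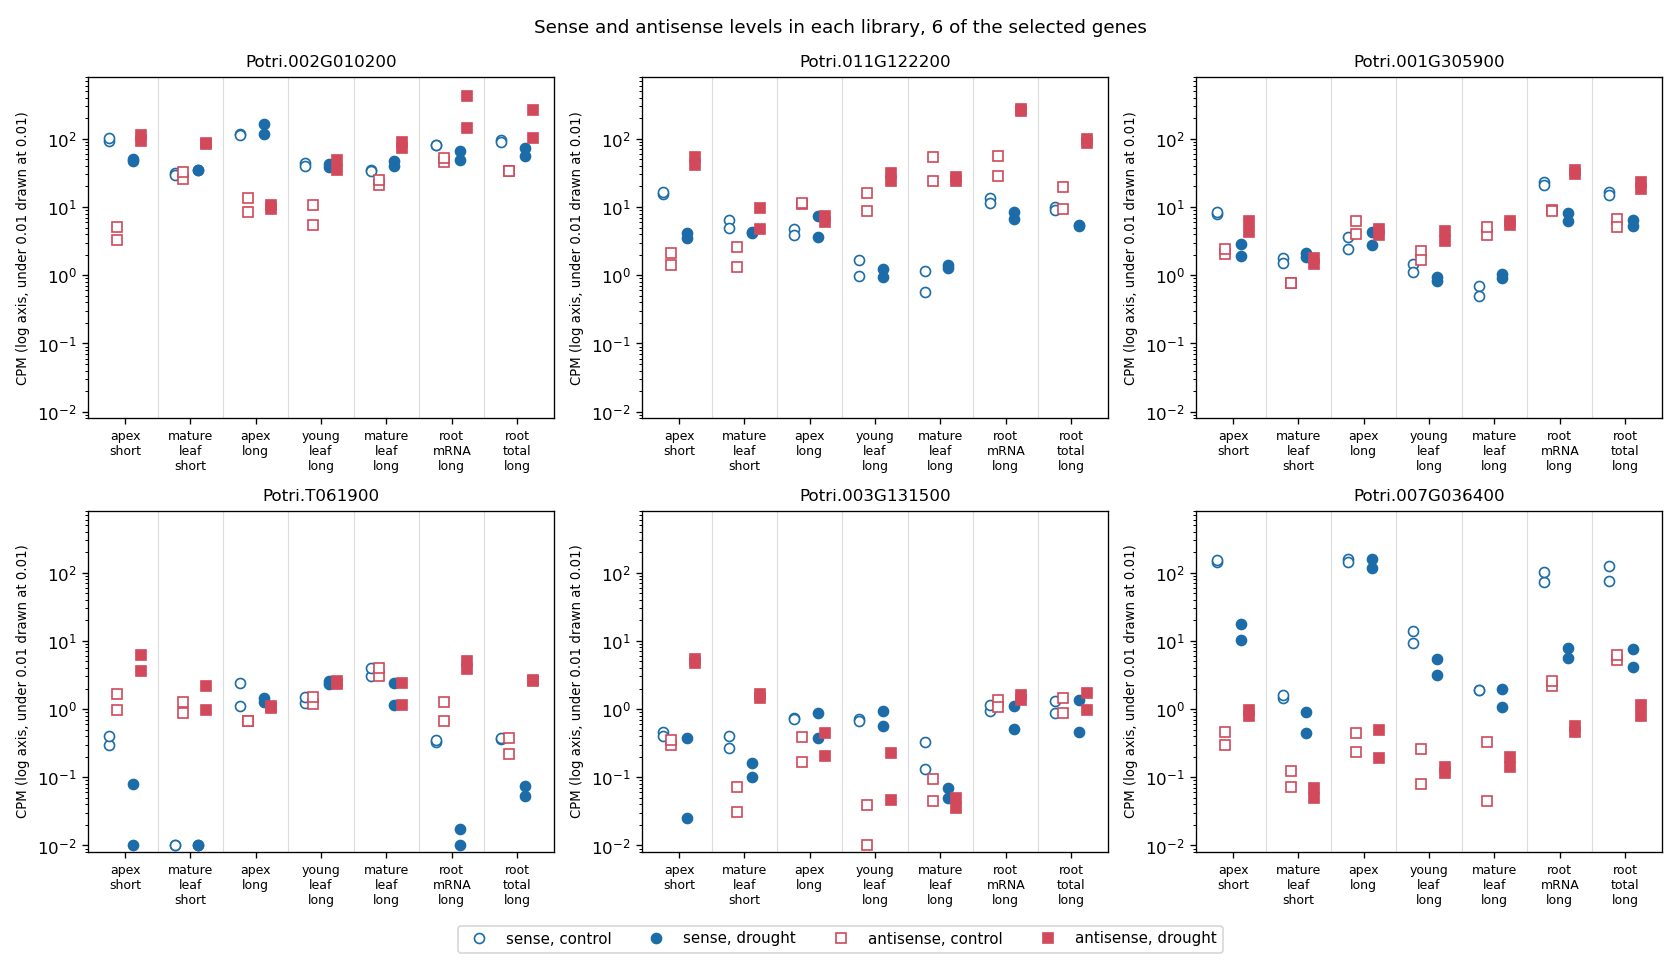
Sense and antisense levels, in CPM on log axes, of 6 genes in every library of the 7 drought comparisons, open symbols for control and filled for drought, with values under 0.01 drawn at 0.01. Antisense of Potri.002G010200 lies higher in drought than in control in every comparison except the long-term apex, where the arms overlap.

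Over the 6 comparisons, 60 of the 134 genes were called lower on the sense strand at least once and 7 higher. Antisense was called higher at least once in 41 and lower in 5. Sense lower and antisense higher were both called somewhere, not necessarily in the same comparison, in 19 genes. In 46 genes nothing was called on either strand, while 128 were tested on the sense strand and 127 on the antisense strand at least once. The share of all genes called at least once over these comparisons was not computed, so nothing is read from these counts.

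**Figure D4:**
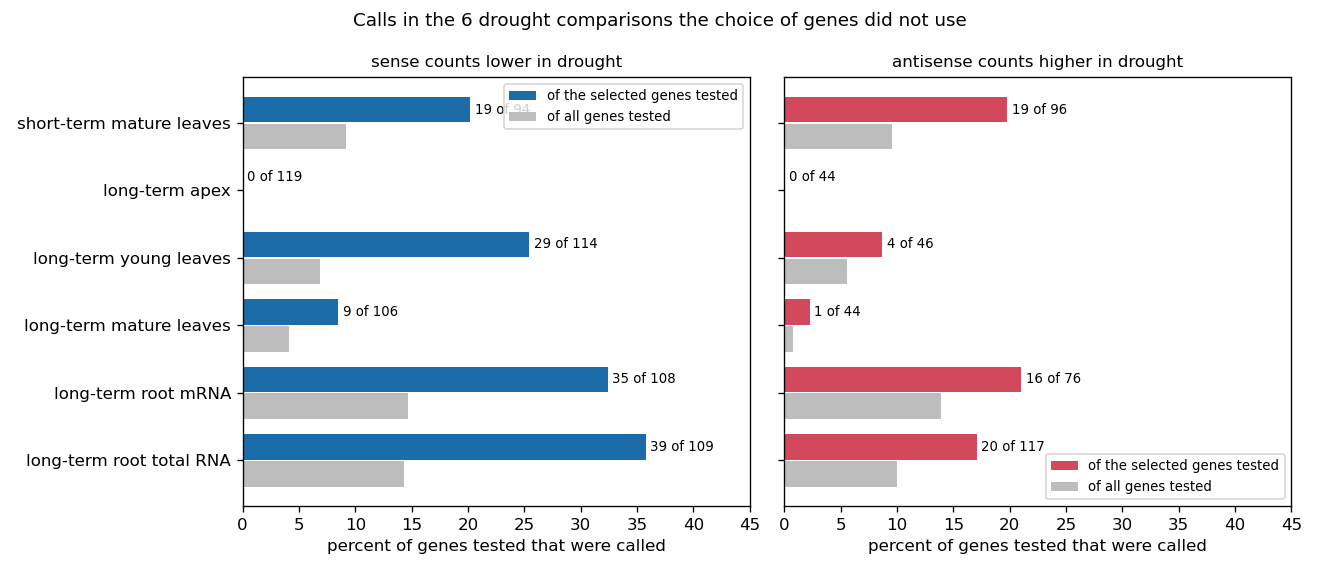
Percent of the genes tested that were called lower on the sense strand (left) or higher on the antisense strand (right) in each of the 6 other drought comparisons, in colour for the selected genes and in grey for all genes tested. Sense was lower in 8.49% to 35.8% of them outside the long-term apex, where it was 0%.

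In well-watered plants, the long-term apex was compared with mature leaves, both as mRNA, to ask on which side each strand was high. Sense was higher in the apex in 71 of 120 genes tested (59.2%, background 28.5%) and lower in 18 (15%, background 27.0%). Antisense was higher in the apex in 1 of 46 (2.17%, background 22.0%) and lower in 21 (45.7%, background 28.4%). The median log2 difference, apex over leaves, was 1.14 for sense and -0.83 for antisense, against 0.03 and -0.12 over all genes tested. With antisense counts subtracted from sense counts, 75 were higher and 12 lower. The choice took genes with more sense and less antisense in well-watered than in drought short-term apex, where apex genes also summed lower in drought. That favours high sense and low antisense in another well-watered apex, and the background is not matched for it. Without apex library 70 there were 66 sense calls, 65 of them among the 89, and 16 antisense calls.

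Sense higher and antisense lower in the apex were both called in 9 of 45 genes tested on both strands (20.0%, background 3.30%). This share is favoured by the choice in the same way, so no excess is read from it. Potri.002G010200 had 117 and 113 CPM of sense in the apex and 34.9 and 34.0 CPM in mature leaves (1.36 ± 0.17, edgeR adjusted p = 0.000517), and 13.4 and 8.45 against 21.0 and 24.5 CPM of antisense (-1.46 ± 0.32, adjusted p = 0.00301), the latter lost without apex library 70 (adjusted p = 0.0778). Potri.016G031100 had 402 and 279 against 108 and 101 CPM of sense (1.32 ± 0.23, adjusted p = 0.00246) and 3.16 and 2.91 against 15.6 and 10.4 CPM of antisense (-2.45 ± 0.29, adjusted p = 0.000143). Potri.008G132400 had 185 and 360 against 47.6 and 44.7 CPM of sense (2.20 ± 0.36, adjusted p = 0.00193) and 1.64 and 1.59 against 4.88 and 6.53 CPM of antisense (-2.21 ± 0.34, adjusted p = 0.000434). The tissues did not overlap on either strand in these genes. Potri.011G122200 had 4.68 and 3.92 against 1.17 and 0.578 CPM of sense (1.93 ± 0.34, adjusted p = 0.00239) and 11 and 11.4 against 24.0 and 53.7 CPM of antisense (-2.22 ± 0.43, adjusted p = 0.0015). The others were Potri.002G195800, Potri.009G169500, Potri.011G093400, Potri.012G114100 and Potri.013G114700. Potri.009G169500 was at the threshold on its antisense strand (adjusted p = 0.0499) and was lost under DESeq2, with no filter on low counts, with the title number as a block, and without apex library 63 or 70 or leaf library 70 (adjusted p from 0.0577 to 0.299).

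**Figure D5:**
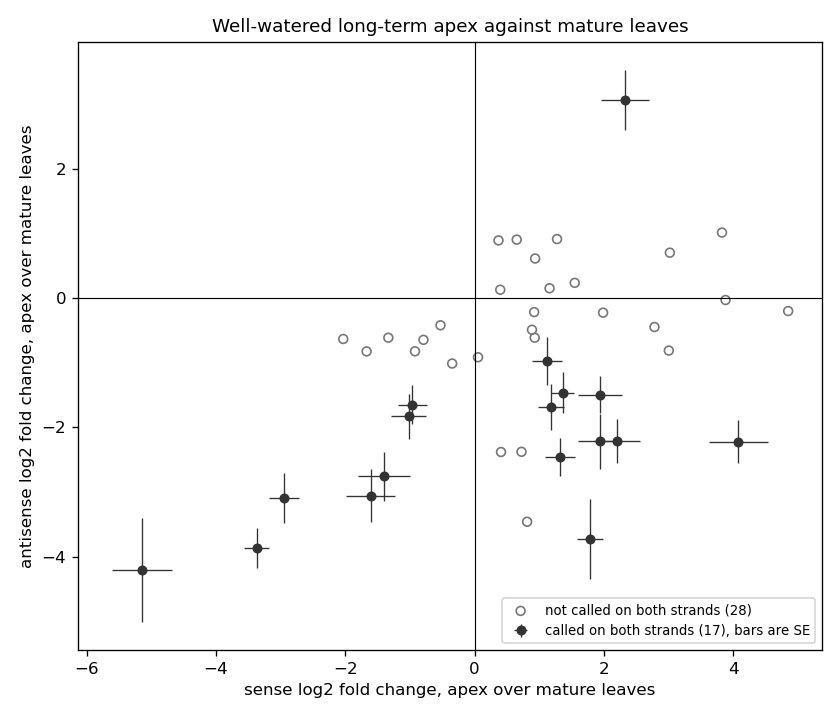
Log2 differences between well-watered long-term apex and mature leaves for the 45 genes tested on both strands, sense on the x axis and antisense on the y axis, with filled points and SE bars for the 17 called on both strands. The 9 genes called higher on sense and lower on antisense in the apex lie in the lower right.

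Another 7 genes were lower on both strands in the apex (15.6%), near the 18.2% of all genes tested on both. These included Potri.001G082300, Potri.003G020100, Potri.008G151500 and Potri.T061900, whose sense and antisense counts lay within 5% of each other in at least 1 of the long-term leaf groups. For the last 3, chosen as named genes by the rules given below, the sense difference turned to the other direction when antisense counts were subtracted. Potri.009G144200 was higher on both strands in the apex.

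In root, total RNA was compared with mRNA over all 8 libraries with the watering arm as a term. Antisense was higher in total RNA in 74 of 120 genes (61.7%, background 40.0%) and lower in 14 (11.7%, background 19%), with a median log2 difference of 0.92 against 0.45 over all genes. The choice required antisense of at least 0.5 CPM in total RNA libraries, which favours antisense seen in total RNA. On that strand 76 of the 134 passed the filter in the root mRNA drought comparison and 117 in that of root total RNA. The background is not matched for this, so nothing is read from the antisense excess. Sense was higher in 26 of 111 (23.4%, background 26.0%) and lower in 20 (18%, background 26.8%). With the shared title number as a block, 77 sense calls were made in place of 46. Median antisense levels of the 134 in root controls were 0.188 CPM in mRNA and 0.459 CPM in total RNA. On the antisense strand 44 to 46 of the 134 passed the expression filter in the drought comparisons of long-term shoot mRNA and 96 in short-term mature leaf total RNA, which differ in term, tissue, library type and depth, and these cannot be told apart.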

How the data were processed

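The deposited files hold raw counts of reads per gene and per intron entry on the sense and the antisense strand, not normalized; TopHat2 2.1.0 and HTSeq 0.6.0 are listed in the submitters' processing notes, as is DESeq2, without their roles. Libraries were made with a stranded kit from mRNA or from ribosome-depleted total RNA, per the labels' protocols. Closing lines that name no gene, present in 44 of 56 gene files, were left out of totals and tests; reads in no feature made up 2.43% to 12.4% of the sense files that list them.

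CPM are counts per 1000000 sense reads of the library, on both strands. The genes and lists were chosen with earlier results of these data known. Each comparison was fitted on its own libraries with edgeR 4.0.16 (limma 3.58.1, R 4.3.3): filterByExpr (minimum count 10, minimum total 15), TMM of the sense counts, a robust quasi-likelihood fit and Benjamini-Hochberg adjustment over all genes tested. Antisense counts used the TMM-corrected sense library sizes. SE is the absolute log2 change over the square root of F. The scripts were tested on simulated data. Alternatives were DESeq2 1.42.0, no filter, the antisense totals as library sizes, the title number as a block and leaving out each library. Subtracting antisense from sense counts and counts of calls on both strands under these alternatives were added after seeing the data. Control and drought libraries of a comparison share no title number. Root mRNA and root total RNA libraries of the same number deviated together (correlation of deviations 0.852 in control and 0.880 in drought over 23903 genes), so those numbers pair. No replicate pair was identical.

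Named genes were the 8 with the highest antisense level in drought, the 8 with the highest sense level in control, the 6 with the highest antisense-to-sense ratio in drought, those nearest each threshold, the 8 called on both strands elsewhere with the lowest adjusted p, and at most 2 up and 2 down per comparison on the antisense strand. Mirror-image neighbours and members of sets of 9 or fewer were named after their values were seen. None of the 41335 identifiers (0) matched the reference table of 34621 genes of assembly P.trichocarpa_v4.1, so planned gene lists and promoter motifs could not be used. The genome build is not given in the sources used here. Counts of overlapping or near-identical genes are uncertain.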

Additional observations from a re-analysis of the deposited data

Results flagged for a closer look

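In 3 genes a strand was called higher with drought in 1 comparison and lower in another. The difference between the comparisons was not tested in any of them. Antisense of Potri.001G407100 changed by 1.66 (log2, drought over control) in short-term mature leaves and by -1.22 in long-term root mRNA. Sense of Potri.008G054000 changed by 6.33 in short-term mature leaves and by -0.85 in long-term young leaves. Sense of Potri.002G093900, named after its values were seen, changed by 1.09 in root mRNA, by 0.85 in root total RNA and by -0.73 in young leaves.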

How the results depend on the processing

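The number of genes meeting the rule was 134, and 128 with TMM-corrected totals (125 shared), 115 with antisense totals (114 shared), 76 with an antisense minimum of 1 CPM, 48 with 3-fold changes, and 144 to 153 when a library was left out (107 to 122 shared). Leaving out each library in turn gave 1 to 46 sense and 3 to 28 antisense calls in mature leaves after 24 hours. After 25 days the ranges were 0 to 2 sense and 0 to 1 antisense calls in apex, 17 to 30 and 1 to 11 in young leaves, 7 to 19 and 1 to 11 in mature leaves, 9 to 41 and 9 to 29 in root as mRNA and 12 to 37 and 18 to 34 in root as total RNA. Genes called lower on sense and higher on antisense numbered 0 to 1 in mature leaves after 24 hours, 0 to 8 in root as mRNA and 1 to 7 in root as total RNA. A lone library in an arm was assumed to vary like the other arm. With DESeq2 there were 4 sense calls in long-term apex, 19 in long-term mature leaves and 3 genes called on both strands in short-term mature leaves. With no filter on low counts there were 18 sense and 3 antisense calls in long-term mature leaves and 1 antisense call in long-term apex. With antisense totals as library sizes there were 2 antisense calls in young leaves. The replicate block by title number raised sense calls between root library types from 46 to 77 and moved no other count by more than 1.5 times. No paired analysis was possible within the drought comparisons because control and drought libraries share no number. With antisense counts subtracted from sense counts, 4 called sense changes reversed: Potri.003G020100 to -0.93 in young leaves and 1.55 between tissues, Potri.008G151500 to 1.07 and Potri.T061900 to 7.55 between tissues, where few reads remained after subtraction. Of 161 calls of named genes, 89 held under every alternative, and over 1276 alternatives 1079 held and 193 were lost. Beyond the subtraction and the leave-one-out fits, the cause was not tested. Of the 134 genes, 44 to 76 were tested on the antisense strand in the mRNA drought comparisons, and 96 and 117 in those of total RNA.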
